A study of Bos taurus with 6 samples.

Results

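Genes of mitosis and of the machinery around it were followed in single bovine morulae cultured with or without a drug against MAT2A, which supplies S-adenosylmethionine, the methyl donor of the cell. The members were picked by symbol: names that start with CENP, KIF, NCAP, BUB, AURK, PLK or CDK, with CCN and then A, B, D or E, or with SMC and a digit, plus TTK, NUF2, CDC20, the CDC25 phosphatases and CDC6. The rule leaves out CDKN1C. It found 117 of 13683 gene symbols. Of these, 113 had a row of their own in all 6 libraries, 112 stood in the expression table and 99 passed the filter of at least 1 FPKM (fragments scaled to transcript length and library size) in 3 or more libraries. A rule on names also takes in genes whose products need not act in mitosis. A group of 7 genes put together by name alone is described apart, and the group of CDK inhibitors and CDK-related names may hold more.

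Embryos from in vitro fertilization were moved 72 h after insemination, with 8 to 16 cells, into medium with 0.1% DMSO (control) or with 20 µM FIDAS-5, a MAT2A inhibitor for which DMSO is the solvent. All were kept in semi-defined medium with bovine serum albumin under 5% oxygen to 144 h (day 6). Each group held 3 libraries, each from the polyA RNA of 1 whole morula, and no strain, sex or sire is given for any embryo. Nothing in the labels ties the embryos to separate cultures or batches of oocytes, so each p-value speaks for the spread among these 6 embryos.

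Cells enter mitosis when B-type cyclins activate the kinase CDK1, which CDC25 phosphatases release from inhibition and which aurora and polo kinases amplify. Condensins then compact the chromosomes, centromere proteins build the kinetochore on them, and kinesins move along microtubules to shape the spindle and to cut the cell apart at the end. The BUB kinases, TTK and CDC20 form the checkpoint that holds back chromosome separation until every kinetochore is attached. Cleavage-stage embryos divide without growing and carry much of this machinery as maternal RNA from the oocyte.

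Library depth, estimated from the deposited bounds, ran from 46400000 to 59900000 fragments. The 7 morula and early lineage markers all passed the filter, with a summed level of 1151 to 1744 FPKM in the controls and 885 to 1264 FPKM in inhibited embryos. Most of it was DPPA3 (661 to 881 against 454 to 575 FPKM) and POU5F1 (312 to 431 against 255 to 376 FPKM). NANOG was at 2.54 to 20.3 against 1.16 to 1.88 FPKM, while SOX2 was higher in inhibited embryos (27.6 to 41.5 against 45.2 to 50.8 FPKM). CDX2 was at only 0.276 FPKM in control 2 and 0.188 FPKM in inhibited embryo 2. Of the 7 cumulus and fibroblast markers, PTX3 was listed at 0 in all 6 libraries, and the sum ran from 60.1 to 129 FPKM in the controls and from 43.5 to 82.9 FPKM in inhibited embryos. Most of that sum was SERPINE2 (53.9 to 122 against 41.0 to 80.2 FPKM), while VIM was at 0.501 FPKM or less in every library and DCN, LUM and COL1A2 were at most 11.002 FPKM, their highest being DCN in control 2. The 3 sperm genes summed to 2.53 to 4.79 FPKM in controls against 5.13 to 11.5 FPKM, and the 2 globin genes, nearly all of it HBA, to 63.1 to 132 against 81.9 to 109.8 FPKM. Y-linked transcripts (4 genes) summed to 58.2 and 118 FPKM in inhibited embryos 2 and 3 and to at most 0.193 FPKM in the other 4, so they were found in 0 of 3 controls and 2 of 3 inhibited embryos. Whether these levels have a part in the results was not tested.

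Many members were abundant and, with 1 exception, the tested members did not pass the test between groups. Of the 112 members in the table, 13 had a mean of 100 FPKM or more and 67 had 10 FPKM or more. limma, fitted on log2(FPKM + 1) over all 7319 genes tested, called 1 of the 99 members, CDKN3, which was higher in the inhibited embryos. The same call in the same direction took in 2 of the 7319 genes, or 0.0273%, with CDKN3 among these 2. CDKN3 was listed at 0 in all 3 controls and passed the filter only through the 3 embryos where it was high. It therefore had to differ once it was tested. Leaving out genes listed at 0 removes CDKN3 itself, and the count of members called was then 0. No member was called lower. An unadjusted limma p below 0.05 was found for 7 of the 99, or 7.07%, against 6.64% of all genes tested, which is close to that background.

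The members' median difference, inhibited minus control, was -0.03 on the log2(FPKM + 1) scale, beside 0.04 over all genes tested. Of the 99, 47 lay above 0, or 47.5%, against 54.2% of all genes. For 7 members all 3 inhibited values lay above all 3 controls, which is 7.07% against 8.27% of all genes tested. Another 7 had all inhibited values below the controls, again 7.07%, against 5.18% of all genes. The 95% interval of the difference lay within 1 log2 unit of 0 for 48 members, or 48.5%, against 40.7% of all genes. Without the 2 libraries with Y-linked transcripts, which leaves 1 inhibited embryo, the members' median was 0.09.

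**Figure D1:**
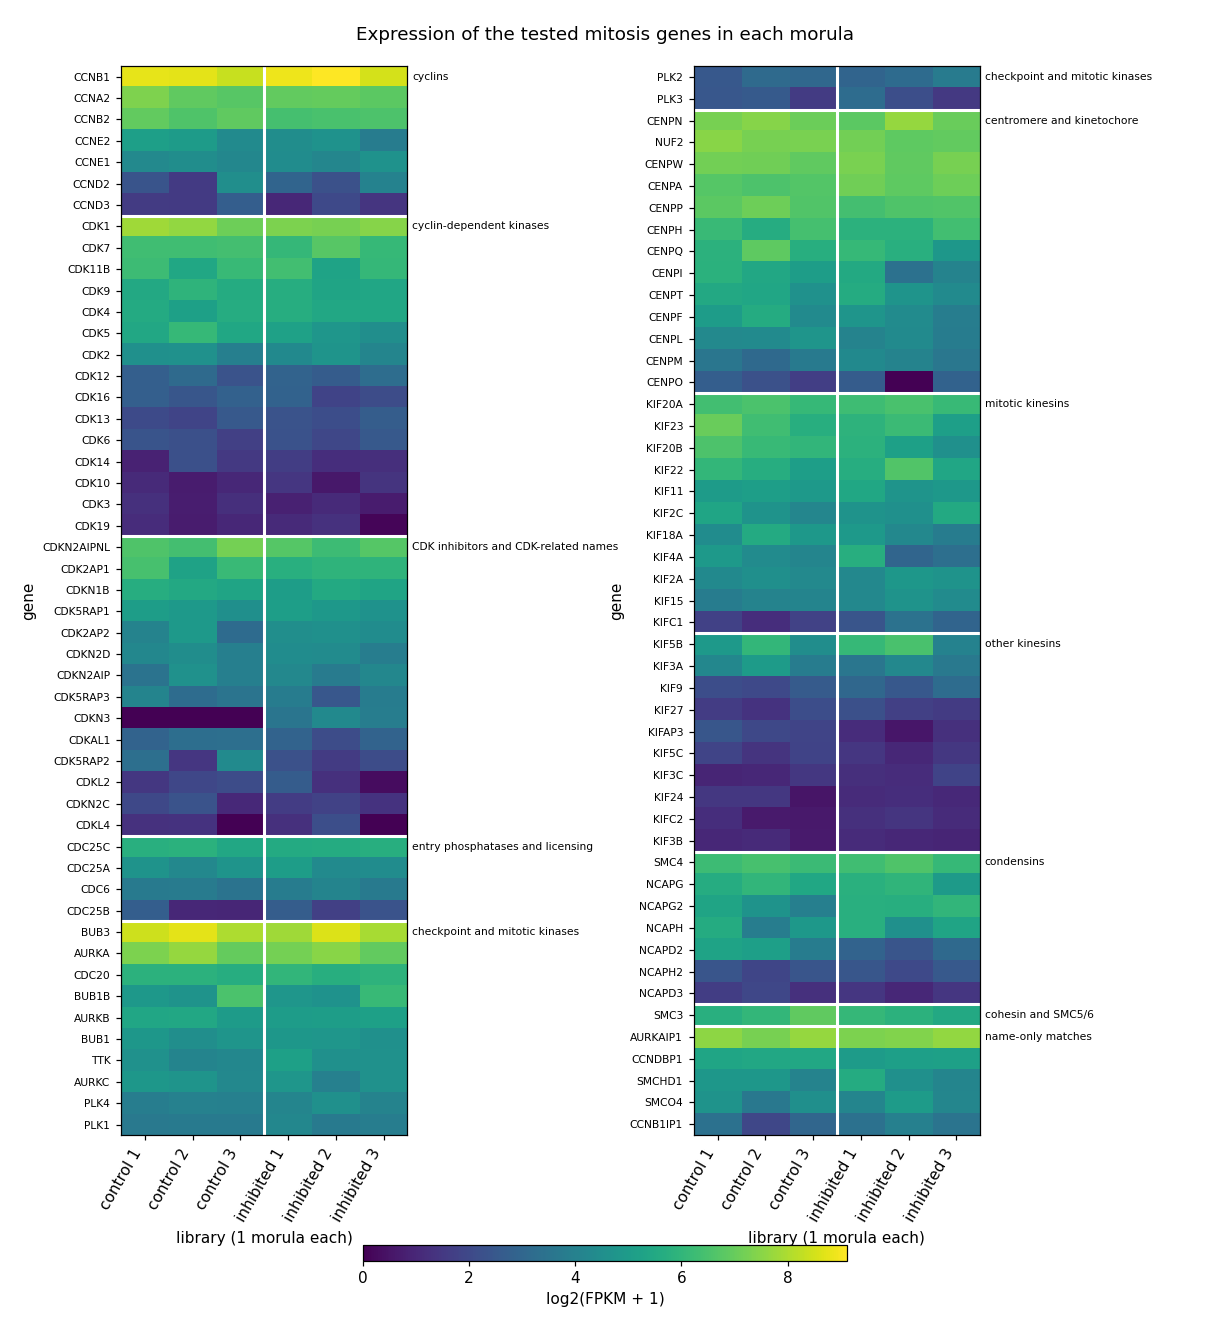
Heatmap of log2(FPKM + 1) for the 99 tested members (rows, grouped by role and ordered by mean) in the 6 libraries (columns, 1 morula each, a white line between the groups). CCNB1 is the brightest row in every library, and CDKN3, listed at 0, is at the bottom of the scale in all 3 controls and in no inhibited embryo.

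**Figure D2:**
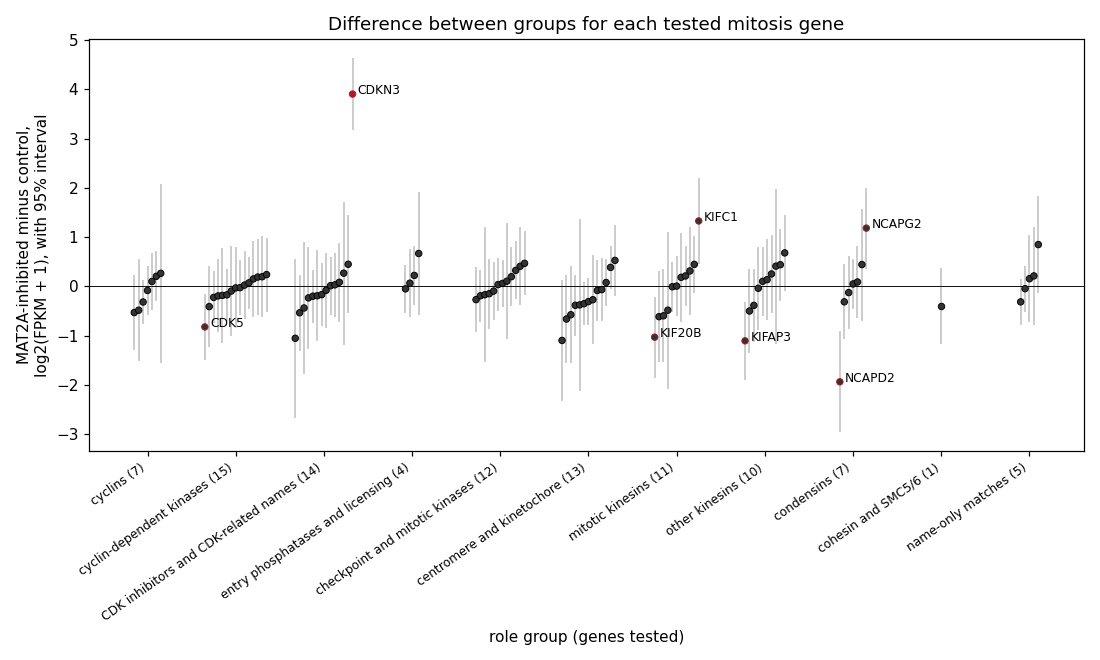
Inhibited minus control difference on the log2(FPKM + 1) scale for each of the 99 tested members, by role, with 95% limma intervals as grey lines; names and red rims mark the 7 with an unadjusted p below 0.05, and a red fill marks the 1 with an adjusted p below 0.05. Most points lie near 0, and CDKN3 stands apart at 3.90.

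Among the cyclins, 0 of 7 tested genes passed limma or had an unadjusted p below 0.05, and 4 had intervals within 1 log2 unit of 0. CCNB1, the cyclin that partners CDK1 at mitotic entry, had the highest mean of all members. It stood at 444, 433 and 328 FPKM in controls 1, 2 and 3 and at 469, 556 and 371 FPKM in inhibited embryos 1, 2 and 3. The groups overlapped, and the difference was 0.20 (95% interval -0.30 to 0.71). CCNA2, which acts in S phase and early mitosis, was at 161, 117 and 107 against 121, 123 and 113 FPKM, with a difference of -0.08 (interval -0.58 to 0.42).

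CCNB2, the other main B-type cyclin, was at 121, 96.8 and 118 FPKM in the controls and at 84.8, 89.5 and 93.2 FPKM in inhibited embryos. All inhibited values lay below all controls, by a small margin, and the difference of -0.32 ± 0.19 (SE) had a limma adjusted p of 0.782. The E-type cyclins, which drive entry into S phase, were lower in level: CCNE1 ran from 17.3 to 24.2 FPKM and CCNE2 from 13.4 to 34.7 FPKM over the 6 embryos, and the groups overlapped for both.

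The D-type cyclins, which couple growth signals to CDK4 and CDK6, were scarce or variable. CCND1 did not pass the filter: it was listed at 0 in all controls and in inhibited embryo 3, and at 0.0385 and 0.464 FPKM in inhibited embryos 1 and 2. CCND2 was among the members with the widest spread, at 4.11, 1.96 and 21.8 FPKM in the controls and 6.65, 3.78 and 15.3 FPKM in inhibited embryos. In each group embryo 3 was the highest, and the difference of 0.26 had an interval from -1.56 to 2.08, which passes 1 log2 unit in both directions. CCND3 ranged from 1.02 to 5.65 FPKM.

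Of the 15 cyclin-dependent kinases tested, 0 passed limma, 1 had an unadjusted p below 0.05 and 10 had intervals within 1 log2 unit of 0. CDK1, the mitotic kinase, was the most abundant, at 224, 198 and 136 FPKM in the controls and 161, 151 and 174 FPKM in inhibited embryos. These values overlapped, with a difference of -0.17 (interval -0.71 to 0.36). CDK7, the kinase that activates other CDKs, was at 79.5, 78.3 and 82.8 against 66.3, 107 and 68.3 FPKM, and its difference was -0.03 (interval -0.59 to 0.54).

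CDK2, the S-phase kinase, had a level of 23.0, 23.4 and 14.4 FPKM in controls against 19.3, 25.3 and 16.9 FPKM, with a difference of 0.03 (interval -0.66 to 0.71). CDK11B, a kinase linked to transcription and splicing, varied alike in both groups, at 75.9, 41.9 and 69.0 against 81.3, 38.1 and 66.3 FPKM. In each group embryo 2 was the lowest.

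CDK5, a kinase best known from neurons that pairs with CDK5R1 in place of a cyclin, gave the lowest p of the kinases. It stood at 43.7, 67.3 and 42.1 FPKM in the controls and 36.1, 26.8 and 22.0 FPKM in inhibited embryos, so the groups did not overlap. The difference was -0.82 ± 0.29 (SE), and the limma adjusted p was 0.714. Without inhibited embryos 2 and 3 it was -0.45. Its activator CDK5R1 was at 0.125 FPKM or less in every library.

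CDKN3, a dual-specificity phosphatase that removes the activating phosphate from CDKs, was the member that passed (bosTau8 chromosome 10, 67155073 to 67172760). It was listed at 0 in controls 1, 2 and 3 and at 10.5, 19.0 and 13.5 FPKM in inhibited embryos 1, 2 and 3. Since the filter let the gene in only through the inhibited group, its p is no independent support for the difference between the values. The limma adjusted p was 0.0102, and the fitted difference on the log2(FPKM + 1) scale was 3.90 ± 0.32 (SE). That size depends on the added constant, being 7.13 with 0.1 in place of 1, and no fold is given against a group listed at 0. An exact permutation test of the 6 values gave p = 0.1, the smallest that 3 against 3 allows.

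The zeros of CDKN3 were looked at in the deposited rows, since a listed 0 can also be a failed estimate. The authors' upper bounds in controls were 0.293, 0.186 and 0.282 FPKM, though such bounds were not taken as errors here. The next gene along, CNIH1, was at 73.3 to 136.5 FPKM in all 6 libraries, which does not show how fragments of CDKN3 itself were assigned. Control 1 and inhibited embryo 1 each held 2 unannotated loci inside the CDKN3 span, at 1.72 and 4.15 FPKM and at 0.810 and 2.68 FPKM. Inhibited embryo 3 held 1, at 1.55 FPKM, and the other 3 libraries held none. Whether fragments of CDKN3 were assigned to such loci was not tested.

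Inhibited embryo 1, which lacks Y-linked transcripts, had the lowest of the 3 inhibited values of CDKN3. Without control 1 the limma adjusted p was 0.0639, with no filter on low values it was 0.0983, and with a mean of at least 5 FPKM it was 0.148. In inhibited embryos 1 and 3 the deposited FPKM lay above its own upper bound (9.50 and 11.6 FPKM), and with the midpoint of the bounds the adjusted p was 0.0781. With any inhibited library left out the gene falls under the filter and has no test. Each library is a whole embryo, so more cells with a transcript and more transcript per cell cannot be told apart.

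The other 13 tested genes in the group of CDK inhibitors and CDK-related names had no unadjusted p below 0.05. CDKN1B, which codes for the inhibitor p27, was at 50.4, 44.1 and 39.6 FPKM in the controls and 32.4, 45.4 and 39.1 FPKM in inhibited embryos, with a difference of -0.20 (interval -0.74 to 0.34). CDKN1A, which codes for p21 and is a classic target of p53, was at 0.304 FPKM or less in all 6 libraries and was not tested. The group's most abundant members were CDKN2AIPNL, at 75.5 to 148 FPKM, and CDK2AP1, at 37.1 to 86.7 FPKM, and for both the groups overlapped.

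CDK5RAP2, a centrosome protein that anchors microtubule nucleation, was among the least stable members. It stood at 9.17, 1.70 and 19.8 FPKM in the controls and 3.83, 2.02 and 3.37 FPKM in inhibited embryos. The inhibited values lay inside the range of the controls, and the difference of -1.05 had an interval from -2.67 to 0.56.

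Of the 4 entry phosphatase and licensing genes, 0 passed limma or had an unadjusted p below 0.05, and 3 had intervals within 1 log2 unit of 0. CDC25C, which activates CDK1 at entry, was one of the tightest members, at 52.7, 56.3 and 43.1 FPKM in the controls and 47.2, 47.3 and 51.4 FPKM in inhibited embryos. Its difference was -0.05 (interval -0.54 to 0.44). CDC25A was at 24.9, 17.9 and 25.6 against 32.9, 19.5 and 20.5 FPKM.

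CDC25B was low and uneven: 5.65, 1.02 and 0.989 FPKM in the controls and 5.42, 2.29 and 4.06 FPKM in inhibited embryos, with an interval from -0.59 to 1.92. CDC6, which loads the replicative helicase on DNA, was at 12.2, 12.8 and 10.2 against 13.2, 16.3 and 12.2 FPKM. None of these 4 genes separated the groups.

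The checkpoint genes and mitotic kinases were all expressed, and 0 of 12 had an unadjusted p below 0.05. BUB3, the checkpoint's scaffold partner, was the second most abundant member, at 345, 424 and 258 FPKM in the controls and 224, 399 and 241 FPKM in inhibited embryos. AURKA, the aurora kinase of the spindle poles, was at 159, 201 and 123 against 149, 179.7 and 121 FPKM. Both sets overlapped widely, with intervals of -0.94 to 0.40 and -0.68 to 0.49.

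CDC20, the activator of the anaphase-promoting complex, was the steadiest of all tested members: its highest value was 1.23 times its lowest. It was at 57.7, 56.8 and 50.7 FPKM in the controls and 62.4, 51.0 and 59.1 FPKM in inhibited embryos, with a difference of 0.06 (interval -0.41 to 0.53). PLK1, the main polo kinase, was at 11.98, 12.7 and 12.3 against 17.5, 12.1 and 13.6 FPKM. TTK, the kinase at the top of the checkpoint, had 23.5, 16.5 and 17.5 FPKM in the controls and 35.1, 22.8 and 23.4 FPKM in inhibited embryos. Its groups touched, since control 1 lay above inhibited embryos 2 and 3, and the limma adjusted p was 0.782.

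BUB1B, which codes for the checkpoint protein BUBR1, was set apart by embryo and not by group. It was at 28.1, 24.9 and 92.8 FPKM in the controls and 26.5, 24.2 and 70.4 FPKM in inhibited embryos. Embryo 3 of each group stood well above the others, as with CCND2, and the labels do not say that equal numbers mark a shared culture. PLK4, the kinase of centriole duplication, was higher in every inhibited embryo (16.8, 22.6 and 16.0 FPKM) than in every control (13.4, 14.98 and 14.8 FPKM), with a limma adjusted p of 0.814.

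Centromere and kinetochore genes, which tie chromosomes to the spindle, were abundant: the median mean of the 13 tested was 61.7 FPKM. Of these, 10 had a difference below 0 and 23.1% lay above it, against 54.2% of all genes tested. The group's median was -0.31, beside 0.04 over all genes tested. Of the 13, 0 passed limma or had an unadjusted p below 0.05. Against the control mean, the group's median by embryo was 0.10, 0.04 and -0.20 in controls and -0.04, -0.26 and -0.23 in inhibited embryos. Control 3 thus lay near inhibited embryos 2 and 3, and the embryos did not part by group. CENPN, which binds the centromeric nucleosome, was at 151, 177 and 133 FPKM in the controls and 112, 203 and 129.9 FPKM in inhibited embryos. CENPW, of the inner kinetochore, was among the steadiest members, at 117 to 154 FPKM over all 6. Both overlapped between the groups.

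NUF2 and CENPA separated the groups in opposite directions. NUF2, part of the NDC80 complex that holds microtubule ends, was at 181, 150.1 and 155 FPKM in the controls and 144, 116 and 121 FPKM in inhibited embryos. CENPA, the histone variant that marks the centromere, was at 105, 93.4 and 101 FPKM in the controls and 141, 115 and 136 FPKM in inhibited embryos. Their differences were -0.35 ± 0.19 and 0.38 ± 0.19 (SE), with limma adjusted p of 0.772 and 0.749.

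CENPO, also of the inner kinetochore, had the widest spread within a group. It was listed at 0 in inhibited embryo 2 and at 5.30 and 6.26 FPKM in the other two, against 5.55, 3.77 and 2.204 FPKM in controls. The interval of its difference ran from -2.13 to 1.37.

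Among the 11 tested mitotic kinesins, KIFC1 and KIF20B had an unadjusted p below 0.05, in opposite directions, and 0 passed after adjustment. These 2 genes are 18.2% of the group, against 6.64% of all genes tested, and nothing particular to the group can be read from so few. The median difference of the group was 0.00494 on the log2 scale. KIF20A, needed for cytokinesis, had the highest mean of the kinesins and one of the tightest ranges, at 81.4, 91.7 and 67.3 FPKM in the controls and 77.6, 90.6 and 70.2 FPKM in inhibited embryos. Its difference was -0.01 (interval -0.51 to 0.49).

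KIF20B, a kinesin of the late spindle midzone, was at 95.3, 70.0 and 63.3 FPKM in the controls and 57.3, 35.7 and 23.0 FPKM in inhibited embryos. The groups did not overlap, and the difference was -1.03 ± 0.35 (SE), at a limma adjusted p of 0.706. The 2 lowest values are those of the embryos with Y-linked transcripts, and without them the difference was -0.38. In every control and in inhibited embryo 1 the deposited FPKM lay above its own upper bound. With the midpoint of the bounds in its place the difference was -0.93.

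KIFC1, a minus-end-directed motor that focuses spindle poles, differed in the other direction, at a much lower level. It stood at 2.43, 1.30 and 2.504 FPKM in the controls and 4.25, 9.88 and 6.64 FPKM in inhibited embryos. All 3 inhibited values were above the controls, and the difference was 1.33 ± 0.37 (SE), at a limma adjusted p of 0.688. The value without inhibited embryos 2 and 3 was 0.80. KIF15, a motor that helps to keep the spindle bipolar, also did not overlap (13.1, 15.9 and 16.2 against 18.1, 24.7 and 20.0 FPKM), with a difference of 0.45 and a limma adjusted p of 0.779.

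KIF23, a subunit of the centralspindlin complex of the midzone, ran from 51.4 to 132 FPKM in the controls and from 34.9 to 73.2 FPKM in inhibited embryos. Its groups overlapped, and its interval was -1.54 to 0.34.

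Kinesins outside mitosis, which mostly haul cargo along microtubules, were lower: the median mean of the 10 tested was 2.04 FPKM. KIFAP3, the adaptor that joins cargo to the kinesin-2 motor, had the lowest p of them. It was at 4.44, 2.98 and 2.62 FPKM in the controls and 1.24, 0.469 and 1.39 FPKM in inhibited embryos, which did not overlap. The difference was -1.11 ± 0.34 (SE) and the limma adjusted p was 0.701, and with a constant of 0.1 the difference was -1.69.

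The motor subunits that KIFAP3 joins did not separate the groups. KIF3A was at 17.5, 30.8 and 13.2 FPKM in the controls and 11.01, 17.99 and 11.9 FPKM in inhibited embryos, and KIF3B at 0.579 to 1.19 FPKM in all 6. KIF5B, the ubiquitous conventional kinesin, was the most abundant of this group and among the most variable members, at 29.0, 65.3 and 21.4 against 68.0, 90.1 and 15.7 FPKM. Its interval ran from -1.16 to 1.98. KIF9, a kinesin linked to cilia, was at 3.41, 3.03 and 5.09 against 7.32, 4.76 and 8.27 FPKM, where control 3 lay just above inhibited embryo 2.

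**Figure D3:**
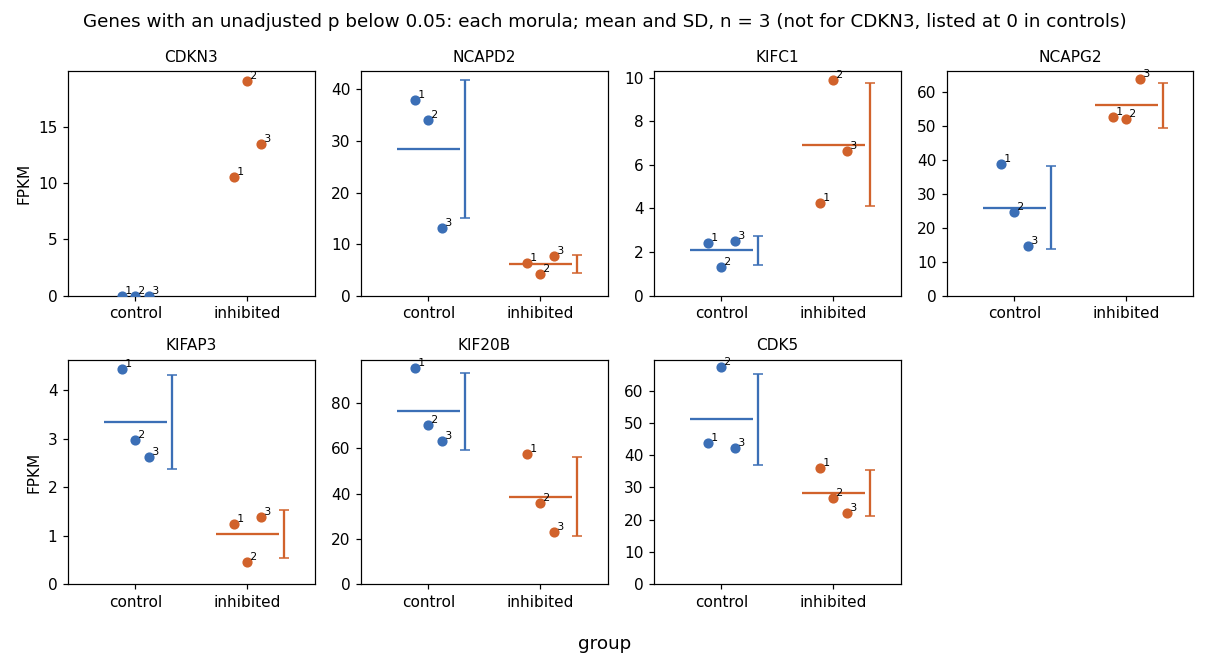
FPKM in each morula (points, numbered by embryo) for the 7 members with an unadjusted limma p below 0.05; lines are group means and bars SD (n = 3), left out for CDKN3, which was listed at 0 in the controls. In each of the 7 panels the 3 inhibited points lie on one side of the 3 control points, and 6 of the 7 genes did not pass after adjustment.

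The condensins, which fold and stiffen mitotic chromosomes, held 2 of the 7 members with an unadjusted p below 0.05, NCAPD2 and NCAPG2, in opposite directions. These are 2 of 7 genes, against 6.64% of all genes tested, and nothing particular to the group can be read from so few. Condensin I and condensin II share the subunit SMC4 and differ in the kleisin and the paired HEAT-repeat subunits. SMC4 was at 75.2, 86.4 and 73.1 FPKM in the controls and 79.7, 97.6 and 67.5 FPKM in inhibited embryos, with a difference of 0.05 (interval -0.46 to 0.55). Of the 7 tested condensin genes, 0 passed limma after adjustment.

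NCAPD2, a HEAT-repeat subunit of condensin I (bosTau8 chromosome 5, 104244546 to 104272712), stood at 37.9, 34.1 and 13.1 FPKM in the controls and 6.41, 4.29 and 7.77 FPKM in inhibited embryos. The groups did not overlap, with control 3 nearest to the inhibited values. The difference was -1.94 ± 0.44 (SE), the unadjusted limma p was 0.00254 and the adjusted p was 0.661. It ran from -2.40 without control 3 to -1.67 without control 1, and was -1.86 without the embryos with Y-linked transcripts. In all 3 controls the deposited FPKM lay above the authors' own upper bound, and with the midpoint of the bounds in its place the difference was -1.68.

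NCAPG2, a HEAT-repeat subunit of condensin II (bosTau8 chromosome 4, 120133791 to 120207828), stood at 38.8, 24.5 and 14.5 FPKM in the controls and 52.5, 52.0 and 63.7 FPKM in inhibited embryos. All inhibited values lay above all controls. The difference of 1.18 ± 0.35 (SE) had a limma adjusted p of 0.701. In control 1 and in all 3 inhibited embryos the deposited FPKM was above its own upper bound, and with the midpoints the difference was 0.81.

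The remaining tested subunits of both complexes overlapped between the groups. SMC2, also listed as a condensin gene, had no row of its own in any library. NCAPG and NCAPH, of condensin I, were at 49.4, 63.7 and 42.1 against 54.2, 61.4 and 30.4 FPKM and at 47.6, 13.6 and 27.97 against 53.1, 22.8 and 39.0 FPKM. NCAPD3 and NCAPH2, of condensin II, were scarce, at 1.04 to 2.86 and 2.73 to 4.84 FPKM over all embryos.

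**Figure D4:**
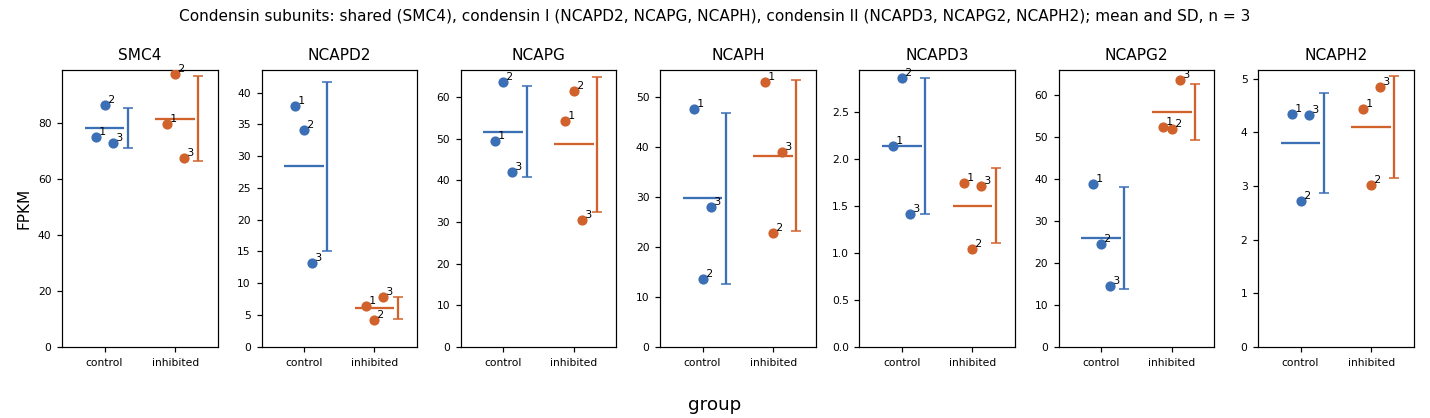
FPKM of the 7 condensin genes in each morula (points, numbered by embryo), with group means and SD (n = 3). NCAPD2 lies lower (4.29 to 7.77 FPKM) and NCAPG2 higher (52.0 to 63.7 FPKM) in the 3 inhibited embryos, while the other 5 genes overlap.

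Cohesin holds sister chromatids together until anaphase. SMC3, its core ATPase, was at 53.3, 64.8 and 117 FPKM in the controls and 67.0, 57.8 and 44.1 FPKM in inhibited embryos, with a difference of -0.41 (interval -1.18 to 0.36). SMC1A had a row of its own in only 3 libraries, at 7.27 FPKM in control 1 and at 1.23 and 1.62 FPKM in inhibited embryos 2 and 3. It was not tested.

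KIF4A, CENPI and CDK16 lie on chromosome X, as does SMC1A. KIF4A, a chromosome-bound kinesin, was at 28.6, 20.3 and 17.0 FPKM in the controls and 52.0, 6.86 and 8.99 FPKM in inhibited embryos. CENPI, an inner kinetochore protein, was at 56.2, 42.9 and 32.3 against 45.9, 9.66 and 16.1 FPKM. CDK16 was at 5.80, 4.47 and 6.07 against 6.29, 2.56 and 3.31 FPKM. For all 3 the 2 lowest values were those of inhibited embryos 2 and 3, the embryos with Y-linked transcripts, while inhibited embryo 1 lay within or above the controls. The groups overlapped for each, and the limma adjusted p ran from 0.749 for CENPI to 0.878 for KIF4A. Lowest values in inhibited embryos 2 and 3 are not particular to chromosome X. CDK5 on chromosome 4 (26.8 and 22.0 FPKM) and KNSTRN, described below, on chromosome 10 (153 and 186 FPKM) were also lowest there. For these, inhibited embryo 1 lay below the controls as well.

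**Figure D5:**
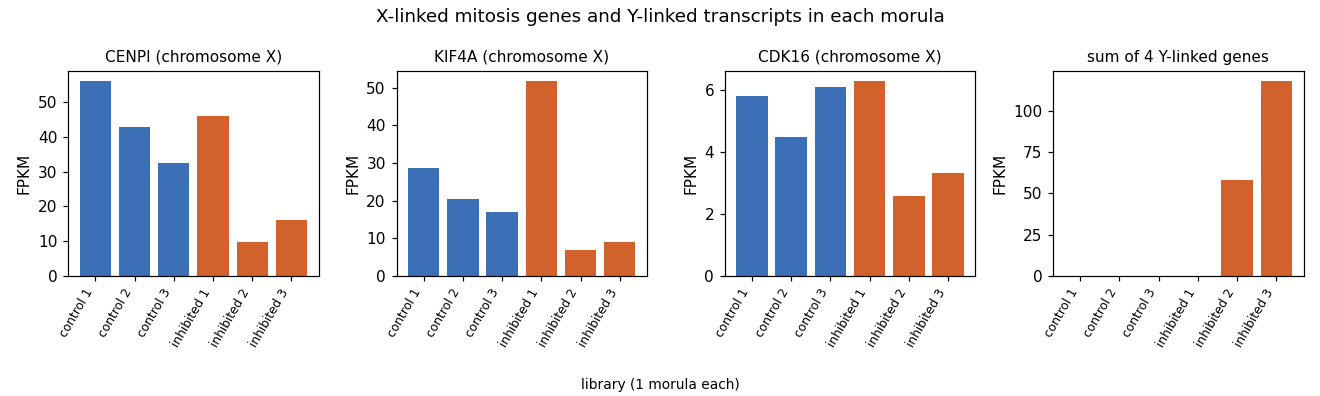
FPKM of 3 X-linked members and the summed FPKM of 4 Y-linked genes in each morula (bars, 1 per library; blue for control, orange for inhibited). The 2 inhibited embryos with Y-linked sums of 58.2 and 118 FPKM have the lowest bars of CENPI, KIF4A and CDK16.

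The last role group held 7 genes that the rule took in by name alone. AURKAIP1, a mitochondrial ribosomal protein named for binding aurora A, was at 151 to 205 FPKM in all embryos. SMCHD1, a chromatin protein that helps to silence the inactive X, was at 27.1, 27.1 and 15.8 FPKM in the controls and 48.5, 22.7 and 16.6 FPKM in inhibited embryos, which overlapped. CCNDBP1 was lower without overlap (40.2, 42.8 and 43.0 against 31.2, 34.5 and 35.03 FPKM), with a limma adjusted p of 0.795. CCNB1IP1, known from meiotic recombination, was higher without overlap by a narrow margin, at 9.65 FPKM in control 1 and 9.70 FPKM in inhibited embryo 1, with a limma adjusted p of 0.754. SMCO1 and SMCO3 were listed at 0 in all 6 libraries.

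Members without a test were accounted for as well. In the table, 13 stayed below the filter. Besides SMC1A, CENPK, CENPC and CDK20 shared a merged locus with a neighbour in some library, and KIF2B had a low-data status in control 1, so none of these 4 was tested. CDK7, CENPH and CCNB1 follow one another among the members on bosTau8 chromosome 20. Other genes between them were not looked for. CDK7 ends 21074 bases before CENPH begins, and CENPH ends 2694 bases before CCNB1 begins (10405246 to 10425999 and 10428694 to 10441229). The differences of CDK7, CENPH and CCNB1 were -0.03, -0.07 and 0.20.

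The spread between embryos of one group was set beside that of other genes. The median SD within a group, on the log2(FPKM + 1) scale, was 0.356 over the 99 members and 0.399 over all genes tested. At a mean of 10 FPKM or more it was 0.339 for 67 members and 0.348 for 4057 genes. Against the control mean, the members' median by embryo was 0.10, 0.04 and -0.11 in controls and 0.10, -0.09 and -0.13 in inhibited embryos, so control 3 and inhibited embryos 2 and 3 lay lowest.

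Other genes of mitosis, listed by function, gave no call. Of 117 listed, 73 were tested, 0 passed limma after adjustment, and 5 had an unadjusted p below 0.05, 1 higher and 4 lower, a share near the 6.64% of all genes tested. Their median difference was -0.05. By list, 0 of 13 anaphase-promoting complex genes, 2 of 7 cohesin partners, 0 of 17 outer kinetochore, checkpoint and passenger genes, 3 of 14 spindle and cytokinesis genes and 0 of 22 entry and exit genes had such a p.

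KNSTRN, a spindle and kinetochore protein, had the lowest p of these. It was at 426, 396 and 333 FPKM in the controls and 311, 153 and 186 FPKM in inhibited embryos, which did not overlap. The difference was -0.89 ± 0.28 (SE), at a limma adjusted p of 0.701. HMMR, which helps to orient the spindle, was at 88.4, 98.1 and 60.5 against 48.0, 59.8 and 47.9 FPKM, and SGOL1, the shugoshin that protects centromeric cohesin, at 50.1, 57.2 and 37.5 against 28.1, 36.7 and 27.0 FPKM. For both the lowest control stood just above the highest inhibited embryo, and the limma adjusted p was 0.746.

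STAG2, an X-linked cohesin subunit, was at 41.3, 46.1 and 42.0 FPKM in the controls and 38.2, 19.3 and 23.6 FPKM in inhibited embryos. Inhibited embryo 1 stood near the controls and the embryos with Y-linked transcripts stood apart. SPAG5, a spindle protein, was the one higher, at 4.17, 4.08 and 15.1 against 19.2, 17.0 and 12.5 FPKM, and its groups overlapped through control 3.

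NDC80, the partner of NUF2, was at 104, 112 and 58.7 FPKM in the controls and 66.0, 55.5 and 49.2 FPKM in inhibited embryos, and SPDL1, which recruits dynein to the kinetochore, at 75.1, 144 and 72.5 against 53.5, 78.4 and 49.1 FPKM. Both overlapped. Of the anaphase-promoting complex, ANAPC16 was at 123, 99.4 and 105 against 60.4, 81.4 and 88.8 FPKM and ANAPC13 at 107, 94.7 and 235 against 80.3, 74.0 and 91.5 FPKM. Neither pair of groups overlapped, with limma adjusted p of 0.746 and 0.753.

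Of the entry and exit genes, CDC7, a kinase that fires replication origins, was at 8.66, 14.95 and 9.26 FPKM in the controls and 17.4, 14.6 and 17.3 FPKM in inhibited embryos. ARPP19, which blocks the phosphatase PP2A during mitosis, was at 403, 523 and 446 against 296, 486 and 307 FPKM. The groups overlapped for both, with limma adjusted p of 0.759 and 0.800.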

How the data were processed

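PolyA RNA of 6 single bovine morulae (3 control, 3 MAT2A-inhibited) was sequenced. For each library the authors deposited gene-level FPKM from Cufflinks with lower and upper bounds, per the file headers. TopHat2 2.0.14, Cufflinks 2.2.1 and the build bosTau8 are named in the submitters' processing notes; the settings and the annotation were not given in the sources used here. Cufflinks can join neighbouring genes into 1 locus in some libraries, and such symbols were left out.

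FPKM was summed per symbol, and 13185 symbols with a row in all 6 libraries and status OK were kept. Between 8.28% and 10.6% of annotated rows lay outside the bounds given for them, which were therefore not taken as errors. Depth was estimated from unannotated loci of 100 to 300 bases. The value taken was the one that made the most lower bounds whole fragments (tolerance 0.05). At that depth 99.5% to 99.7% were whole, a share that the choice itself made as high as possible. With starts read as 1-based only 96.3% to 97.5% were, so 1 was added to starts. FPKM are not counts, so no count model was fitted. Genes that reached 1 FPKM in 3 or more libraries were tested with limma 3.58.1 (R 4.3.3) on log2(FPKM + 1), two-sided, with a mean-variance trend and Benjamini-Hochberg adjustment over 7319 genes (threshold 0.05). The added 1 understates the change of low genes.

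The fit was tested on simulated data with 200 of 7319 genes changed, over 10 runs, drawn from the more highly expressed genes. The share of changes found was 20.5% at 2-fold, 72.1% at 4-fold and 90.5% at 8-fold, with 7.8 false calls per run. In the real data only 3 genes were called. The adjusted threshold there was stricter than with 200 changed genes, so these shares can overstate what was detectable. A member that was not called may still have changed by 4-fold. An exact permutation test on FPKM, two-sided, was run for each tested member. Its p cannot go below 0.1 here and is printed only for CDKN3.

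The members and lists were chosen with earlier results of these data known. Named were members that passed or had an unadjusted p below 0.05, the 3 most abundant of each role, those at 0 in a whole group, the 5 with the widest spread within a group, a set of core genes and, of the other mitotic genes, the 2 with the smallest p in each list. Further genes (among them CENPA, PLK4, KIF15, CCNB1IP1, CENPI, CDK16, CDKN1A, CDK5R1, KIF3B and SPAG5) were named after their values were seen. Sequences and promoter motifs were not used here.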

Additional observations from a re-analysis of the deposited data

How the results depend on the processing

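The values were recomputed under 20 alternatives, 1 of them, the midpoint of the authors' bounds, chosen after seeing the data. Of all genes tested 3 were called. That count became 1 with no filter on low values, with a mean of at least 5 FPKM, with the replicate number as a block and with the bound midpoints, 0 without genes listed at 0 and without the libraries that hold Y-linked transcripts, and 5 with array weights; leaving out 1 library gave 0 (each inhibited library) to 8 (control 3). The 1 member called, CDKN3, became 0 with no filter (adjusted p = 0.0983), with a mean of at least 5 FPKM (0.148), with the replicate block (0.144) and with the midpoints (0.0781). It was also 0 without genes listed at 0 and without the Y-linked libraries, where the gene had no test. Leaving out 1 library gave 0 to 1: 0 without control 1 (adjusted p = 0.0639) and without each inhibited library, where CDKN3 had no test. The members' median stayed between -0.0763 and 0.00358 in the other alternatives over all libraries, was 0.092 without the Y-linked libraries and ran from -0.0734 to 0.018 with 1 library left out. Members whose groups did not overlap numbered 14, 19 to 28 with 1 library left out and 49 without the Y-linked libraries. Fewer samples make a gap more common by construction, and no share over all genes was computed beside the counts with libraries left out. The 7 members with an unadjusted p below 0.05 kept their sign in every alternative that tested them. The groups of these 7 did not overlap, so leaving out libraries could not reverse the sign, and this adds no support. With array weights 12 members had such a p, with no share over all genes computed beside it. Of the 46 named and tested members 23 changed sign in some alternative. Other mitotic genes called stayed at 0 throughout. Equal replicate numbers were not taken as pairs: the correlations of their deviations were 0.0456, 0.103 and 0.191, not all above 0.1. Inhibited embryos 2 and 3 were each closest to the control of the same number and inhibited embryo 1 to control 2 (0.102), a hint from the data and not from the design. With 3 embryos a group, 2-fold changes were mostly not detectable.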
